A study of Flaveria angustifolia and Flaveria bidentis and Flaveria brownii with 21 samples.

Results

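Mature leaves of 4 Flaveria species with a C4 or C4-like leaf were compared with mature leaves of 4 species with a C3 or C3-C4 leaf. These 8 libraries were taken from a series of 21 samples by species and leaf stage. Flaveria, in the daisy family, holds C3 and C4 species as well as intermediates between them. The C4-type group held F. bidentis, F. kochiana and F. trinervia, which are C4 species of the lineage called clade A, and F. brownii, a C4-like species of clade B. The C3-type group held F. pubescens, a C3-C4 intermediate of clade B, F. angustifolia, a C3-C4 intermediate, and the C3 species F. cronquistii and F. pringlei, the last 3 from the base of the genus. Photosynthetic type and clade are textbook knowledge of these species and are not given in the labels. All were greenhouse plants with no treatment or genotype named, and the mature sample was the newest leaf that had fully expanded. Each species gave 1 library, made from pooled leaves of several plants, so the species is the replicate and variation among plants within a species was not measured. The tests below treat the species as independent, although several species of a group share a lineage.

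In a C4 leaf CO2 is first captured in mesophyll cells by PEP carboxylase, the acid made is moved into the bundle sheath, and a decarboxylase releases the CO2 again around Rubisco. Pyruvate then returns to the mesophyll, where PPDK regenerates PEP at the cost of extra ATP, part of which is supplied by cyclic electron flow around photosystem I. Concentrating CO2 in this way suppresses the oxygenase reaction of Rubisco, whose product is salvaged by photorespiration. In C3-C4 intermediates glycine is decarboxylated in the bundle sheath, which recaptures photorespired CO2 by a weaker route.

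Values are RPM, reads per 1000000 reads of a library that the authors assigned to Arabidopsis loci. A symbol below thus names the Arabidopsis locus to which Flaveria reads were assigned. Reads of close family members could have been split between loci, and values of single members of PEP carboxylase, NADP-malic enzyme, Rubisco small subunit, antenna and similar families are uncertain for that reason. The mature libraries held 6.54 to 9.15 M assigned reads (M, 1000000) in C4-type species and 5.45 to 7.16 M in C3-type species. Reads assigned to no locus are not in these totals, and shares of reads below are shares of assigned reads. A count of 0 allows a level of up to 3 reads, which is 0.328 to 0.459 RPM in C4-type libraries and 0.419 to 0.550 RPM in C3-type libraries, counting error only. Because whole leaves were used, fewer cells of a type and less RNA per cell cannot be told apart.

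Some libraries stood apart. The F. brownii library had 0.640% of its reads on mitochondrial loci, against 0.0494 to 0.241% in the other 7. Its senescence list summed to 1490 RPM, against 273 to 483 RPM in the others, and 865.0 RPM of it came from SAG12 alone. The 50 most abundant loci of F. brownii took 24.9% of its reads, against 31.6 to 40.7% in the others. Over the 13909 loci averaging 2 RPM or more, F. brownii was closest to F. angustifolia of the other group (Spearman correlation 0.853 across loci). F. kochiana was also closest to a C3-type library, F. pringlei, though hardly more so than to F. trinervia (0.833 and 0.831). F. cronquistii had 1105 RPM on the epidermis and stomata list, against 23.9 to 40.4 RPM in the other 7, and nearly all of it came from the wax genes CER1, with 839.8 RPM, and CER3, with 246.9 RPM. Markers of shoot meristem and flower summed to 2.91 to 12.3 RPM in C4-type leaves and 1.26 to 5.32 RPM in C3-type leaves, and STM, which marks the meristem, was at 0 in 6 of 8 libraries and had 1 read in each of the other two. Rubisco small subunit and antenna loci were abundant in every library, as in leaf tissue. The types assigned to the species were set beside PEP carboxylase. Its loci summed to 44062 to 53577 RPM in C4 species and 6778 RPM in F. brownii, against 1561 to 2918 RPM in C3-type leaves. The same values are reported below as a result, so they are no separate check of the types.

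Few loci passed a test across the genome, and those with a name on the gene lists were a Calvin-Benson regulator and a sodium antiporter. The call with the lowest p and the widest gap was the locus AT4G16980, lower in C4-type leaves. With limma on log2(RPM + 1) and Benjamini-Hochberg adjustment at 0.05, 4 loci were higher (0.0288% of 13909) and 2 lower (0.0144%) in C4-type leaves, out of 6 called in all (0.0431%). An unadjusted p under 0.05 was reached by 1135 loci (8.16%), of which 717 were higher (5.15%) and 418 lower (3.01%). The edgeR quasi-likelihood test on recovered reads called 0 loci, with a smallest adjusted p of 0.106, and 1387 loci (9.97%) had an unadjusted p under 0.05. For description, a locus was counted as separated when all 4 libraries of a group lay above all 4 of the other and the group means differed by at least 1 on the log2(RPM + 1) scale. By that count 232 loci were separated with C4-type higher (1.67%) and 111 with C4-type lower (0.798%), 343 in all (2.47%). Of these 67.6% had the higher values in C4-type leaves, and with TMM scaling 301 loci were separated (2.16%), 166 higher (1.19%) and 135 lower (0.971%), or 55.1% higher. Taking all loci, the median log2 difference was 0.04.

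These counts turned on single libraries. Without F. brownii the limma test called 104 loci (0.757% of 13746), 74 higher (0.538%) and 30 lower (0.218%). In those 7 libraries 1022 loci were separated (7.43%), 507 higher (3.69%) and 515 lower (3.75%). With only the C4 and C3 species, 3 against 2 libraries, 50 were called (0.364%), 33 higher (0.24%) and 17 lower (0.124%). Without F. pubescens it called 11 and 3, with 378 and 229 separated. The calls with C4-type higher numbered 2 when F. cronquistii, F. pringlei or F. trinervia was left out. The calls with C4-type lower numbered 1 when F. pringlei, F. bidentis, F. kochiana or F. trinervia was left out. Separated loci with C4-type higher numbered 363 without F. cronquistii and 349 without F. trinervia, and those with C4-type lower numbered 167 without F. angustifolia and 211 without F. pringlei. Non-overlap is easier to reach with 7 libraries than with 8.

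CP12-3 (AT1G76560) is a member of the CP12 family, small chloroplast proteins that bind and inactivate 2 Calvin-Benson enzymes, GAPDH and phosphoribulokinase. It had 944.8 RPM in F. bidentis, 518.5 in F. kochiana, 1104 in F. trinervia and 101.8 in F. brownii, against 6.15 in F. pubescens, 7.26 in F. angustifolia, 2.94 in F. cronquistii and 8.36 in F. pringlei. Every C4-type library lay more than 10 times above the highest C3-type library, and F. brownii was the lowest of its group. The difference was 6.15 ± 0.67 (SE) on the log2 scale, with a limma adjusted p of 0.0065 and an adjusted p of 0.106 by edgeR. Its relatives CP12-1 and CP12-2 were abundant in both groups. CP12-2 differed by 1.25 ± 0.55 (limma adjusted p = 0.595), and its C4-type range of 184.8 to 691.4 RPM overlapped the C3-type range of 116.1 to 484.9 RPM. CP12-1 ran from 1080 to 2661 RPM in C4-type leaves and from 571 to 2245 RPM in C3-type leaves.

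NHD1 (AT3G19490) is the plastid sodium:proton antiporter that, in Flaveria, works beside the sodium-dependent pyruvate importer BASS2. It had 1786 RPM in F. bidentis, 1404 in F. kochiana, 1849 in F. trinervia and 502.4 in F. brownii, against 106.9 in F. pubescens, 58.7 in F. angustifolia, 53.0 in F. cronquistii and 53.7 in F. pringlei. The groups did not overlap, with F. brownii lowest in its group and F. pubescens highest in the other. The difference was 4.23 ± 0.46 on the log2 scale (limma adjusted p = 0.0065), with an adjusted p of 0.106 by edgeR. The limma call held in each of the 8 fits that left out 1 library, with a limma adjusted p of up to 0.049.

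The other 4 called loci, 2 lower and 2 higher in C4-type leaves, were in none of the gene lists and are given by locus only. Whether any of them belongs to the family of a listed locus such as NHD1, and could share its reads, was not examined. AT4G16980 had 0.256 RPM in F. bidentis, 0.306 in F. kochiana, 0 in F. trinervia and 4.76 in F. brownii, against 990.1 in F. pubescens, 298.4 in F. angustifolia, 145.3 in F. cronquistii and 229.5 in F. pringlei. The 3 C4 libraries were thus at or below the level of 3 reads, and F. brownii stood above them. The fitted difference was -7.49 on the log2(RPM + 1) scale (limma adjusted p = 0.00241). AT3G26400 had 3.36 to 6.50 RPM in C4-type leaves and 47.1 to 411.7 RPM in C3-type leaves, a difference of -4.58 ± 0.60 (limma adjusted p = 0.0251). AT1G49810 had 94.8 to 339.0 RPM in C4-type leaves and 8.90 to 22.2 RPM in C3-type leaves, a difference of 3.90 ± 0.46 (limma adjusted p = 0.0102). AT3G50360 had 105.2 to 198.0 RPM in C4-type leaves and 20.9 to 37.3 RPM in C3-type leaves, a difference of 2.41 ± 0.35 (limma adjusted p = 0.0492). The call of AT3G50360 was lost when any library other than F. brownii or F. pubescens was left out (limma adjusted p 0.0992 to 0.229). AT3G26400 lost its call without F. pringlei (0.135), F. bidentis (0.097), F. kochiana (0.113) or F. trinervia (0.111). Both were at a limma adjusted p of 0.052 with TMM scaling. AT1G49810 lost it without F. cronquistii (0.0514), F. pringlei (0.0676) or F. trinervia (0.051).

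**Figure D1:**
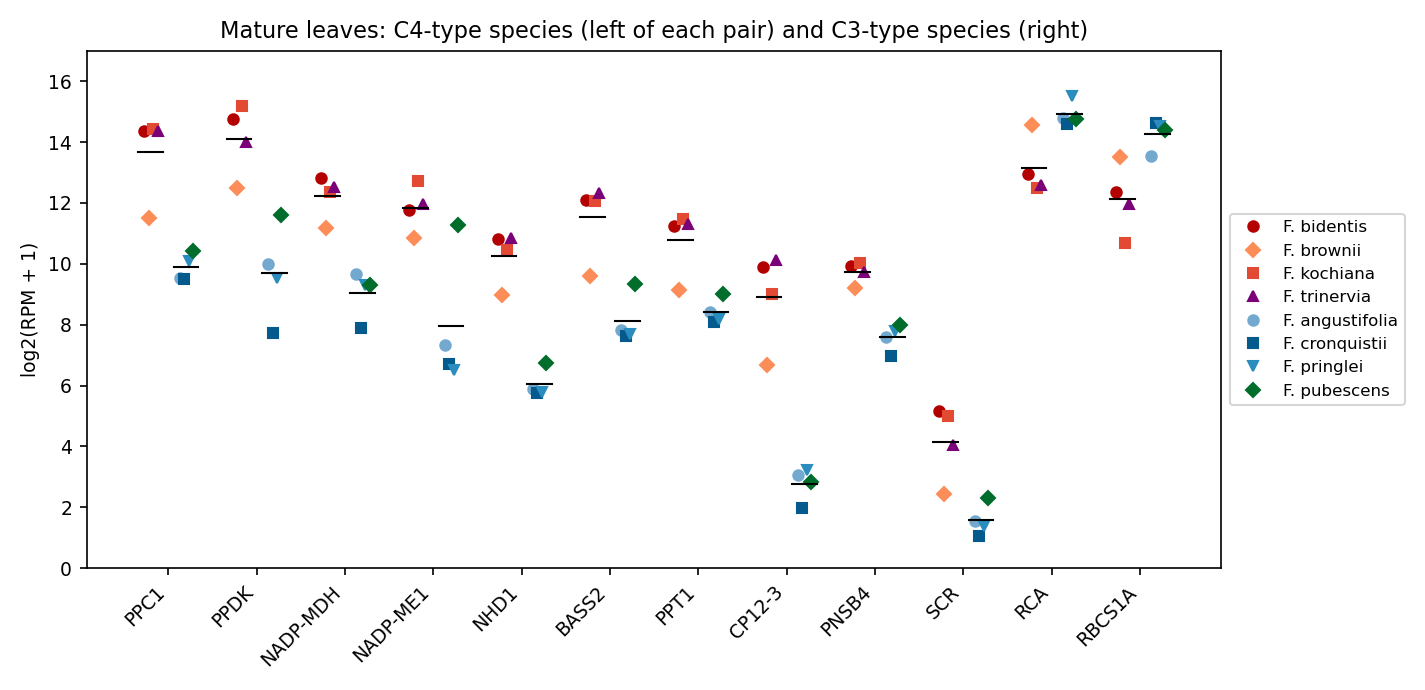
Level of 12 loci in each mature library as log2(RPM + 1), with the 4 C4-type species on the left of each pair, the 4 C3-type species on the right, 1 point per library and a bar at the group mean. F. brownii is the lowest C4-type library for every locus drawn except RCA and RBCS1A, for which it is the highest. For NADP-ME1 the C3-type F. pubescens, at 2470 RPM, lies above F. brownii, at 1837 RPM.

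Loci for the capture of CO2 into acids and for the regeneration of PEP had their highest values in C4-type leaves, although none passed the main test of all 8 libraries. With the filter at a mean of 10 RPM instead of 2, PPC3 and NADP-MDH passed (limma adjusted p 0.0444 and 0.0419). Without F. brownii 8 of the 25 loci of the list were called, all higher in C4-type leaves, against 0.538% of all loci called higher. Of 25 C4 cycle enzyme loci, all of them tested, 11 were separated with C4-type higher and 0 with C4-type lower, 44% of the list against 2.47% of all loci. The median difference of the list was 2.92, against 0.04 for all loci. With TMM scaling 8 were separated with C4-type higher, against 1.19% of all loci. The 11 include family members between which reads could have been split: PPC1, PPC2 and PPC3, the PPDK regulators RP1 and RP2, and the alanine aminotransferases AlaAT1 and AlaAT2. They are thus not 11 independent results, and the list was chosen with earlier results of these data known. The whole list took 118725 RPM in F. bidentis, 132356 in F. kochiana, 99749 in F. trinervia and 30254 in F. brownii, against 26323 in F. pubescens, 14851 in F. angustifolia, 10113 in F. cronquistii and 19175 in F. pringlei. These loci thus took 9.97 to 13.2% of all reads in the C4 species and 3.03% in F. brownii, against 2.63% in F. pubescens and 1.01 to 1.92% in the basal species.

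PPC1 (AT1G53310), the PEP carboxylase locus with the most reads, had 20916 RPM in F. bidentis, 22289 in F. kochiana, 20856 in F. trinervia and 2901 in F. brownii, against 1366 in F. pubescens, 736.1 in F. angustifolia, 728.6 in F. cronquistii and 1102 in F. pringlei. The 3 C4 libraries were within a narrow range, and F. brownii lay far below them and above every C3-type library. The difference was 3.77 ± 0.62 (limma adjusted p = 0.0842). PPC2 and PPC3 differed by 3.92 and 3.81, and in both F. brownii was again the lowest C4-type library and lay above all C3-type libraries. Summed over the 3 PEP carboxylase loci, C4-type leaves had 37824 ± 21079 RPM and C3-type leaves 2169 ± 679 RPM (SD, n = 4 each).

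PPDK (AT4G15530) had 27538 RPM in F. bidentis, 37263 in F. kochiana, 16256 in F. trinervia and 5763 in F. brownii, against 3109 in F. pubescens, 1015 in F. angustifolia, 208.8 in F. cronquistii and 739.3 in F. pringlei. The groups were separated, and the gap between F. brownii and F. pubescens was small beside the spread within either group. The difference was 4.40 ± 0.78 (limma adjusted p = 0.123), and it passed without F. pubescens (5.03, limma adjusted p = 0.036). The locus of its regulatory protein RP1, which switches PPDK on and off with light, ran from 123.2 to 323.1 RPM in C4-type leaves and from 15.8 to 62.2 RPM in C3-type leaves. Plastid pyrophosphatase PPA6, which removes the pyrophosphate that PPDK makes, ran from 583.4 to 2323 RPM and from 253.9 to 447.8 RPM in the same groups. Adenylate kinase AMK2, which recycles the AMP that PPDK makes, had 746.5 to 2515 RPM in C4 species and 45.2 RPM in F. brownii, against 34.3 to 80.2 RPM in C3-type leaves. PEP carboxylase kinases, which make PEP carboxylase less sensitive to malate, followed neither grouping cleanly. PPCK1 and PPCK2 had 38.1 to 178.4 and 108.5 to 125.2 RPM in C4 species and 21.9 and 40.1 RPM in F. brownii, against 34.9 and 50.4 RPM in F. pubescens and 1.61 to 7.15 RPM in the other 3 C3-type libraries. PPA6, RP1, AMK2, PPCK1 and PPCK2 were named after their values were seen.

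NADP-MDH (AT5G58330), which reduces oxaloacetate to malate in the mesophyll chloroplast, had 7307 RPM in F. bidentis, 5260 in F. kochiana, 5843 in F. trinervia and 2301 in F. brownii, against 624.2 in F. pubescens, 813.2 in F. angustifolia, 237.6 in F. cronquistii and 638.3 in F. pringlei. The C4-like library was here nearer to the C4 species than for PEP carboxylase. The difference was 3.18 ± 0.48 (limma adjusted p = 0.0648). Of the aminotransferases that shuttle aspartate and alanine between the cell types, ASP5 and both alanine loci, AlaAT1 and AlaAT2, were separated, while ASP1, ASP2 and ASP3 overlapped (-0.04, 1.12 and 1.04). They were chosen for mention once their values had been seen. ASP5 had 491.9 to 2337 RPM in C4-type leaves and 72.6 to 264.1 RPM in C3-type leaves, and AlaAT1 had 696.7 to 1906 RPM and 58.0 to 528.5 RPM. In both, F. brownii was the lowest C4-type and F. pubescens the highest C3-type library, and for AlaAT2 these lay at 679.7 and 674.2 RPM.

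NADP-malic enzyme, which decarboxylates malate in the bundle sheath of these species, gave overlapping groups. NADP-ME1 (AT2G19900) had 3463 RPM in F. bidentis, 6685 in F. kochiana, 4011 in F. trinervia and 1837 in F. brownii, against 2470 in F. pubescens, 161.5 in F. angustifolia, 104.7 in F. cronquistii and 90.9 in F. pringlei. F. pubescens exceeded F. brownii and was over 10 times the other 3 C3-type libraries. The difference was 3.85 ± 0.90 (limma adjusted p = 0.199, exact permutation p = 0.0571, where the smallest possible is 0.0286). Without F. pubescens it was 4.96 (limma adjusted p = 0.00505). All 4 NADP-malic enzyme loci together gave 4785 RPM in F. brownii against 6396 RPM in F. pubescens, and 9166 to 20625 RPM in the C4 species against 311 to 895 RPM in the basal species. The NAD-malic enzyme and PEP carboxykinase loci of other C4 plants were low in both groups, and those 4 loci summed to 109.4 to 265.6 RPM in C4-type leaves and 231.7 to 365.5 RPM in C3-type leaves, with 0 separated.

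Carbonic anhydrase, which supplies bicarbonate to PEP carboxylase, was abundant in both groups, with no detectable difference. CA1 (AT3G01500) had 7225, 1760, 5852 and 2695 RPM in F. bidentis, F. kochiana, F. trinervia and F. brownii, against 4714, 3428, 2638 and 4884 RPM in F. pubescens, F. angustifolia, F. cronquistii and F. pringlei. The groups overlapped widely, and the lowest value of all was that of the C4 species F. kochiana. The difference was -0.01 ± 0.47 (limma adjusted p = 0.997), and its sign turned with the libraries used. Summed over 4 loci, carbonic anhydrase was 11668 ± 6688 RPM in C4-type leaves and 10078 ± 3041 RPM in C3-type leaves (SD, n = 4 each).

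Transporters of the C4 cycle were highest in the C4 species, with F. brownii and F. pubescens between them and the basal species for several. Of 9 loci, 3 were separated with C4-type higher and 0 with C4-type lower, 33.3% against 2.47% of all loci, and the median difference was 1.86. With TMM scaling 1 of the 9 was separated, against 2.16% of all loci. NHD1, described above, was the member called. BASS2 (AT2G26900), the pyruvate importer of the chloroplast, had 4426 RPM in F. bidentis, 4280 in F. kochiana, 5140 in F. trinervia and 775.0 in F. brownii, against 641.3 in F. pubescens, 225.8 in F. angustifolia, 197.7 in F. cronquistii and 204.8 in F. pringlei. The 2 clade B libraries, C4-like and C3-C4, nearly met between the other groups. The difference was 3.41 ± 0.62 (limma adjusted p = 0.131). The PEP exporter PPT1 behaved alike, at 559.9 RPM in F. brownii and 2396 to 2851 RPM in the C4 species, against 509.4 RPM in F. pubescens and 272.0 to 341.3 RPM in the basal species (2.36 ± 0.51, limma adjusted p = 0.174). DiT1, the plastid exchanger of malate and 2-oxoglutarate, overlapped between groups, since F. pubescens had 385.0 RPM and F. brownii 251.3 RPM (difference 1.72 ± 0.52, limma adjusted p = 0.376). The mitochondrial dicarboxylate carrier DIC1 ran the other way in the C4 species, at 5.35 to 17.8 RPM, against 41.4 to 143.2 RPM in C3-type leaves, but F. brownii had 80.8 RPM. DIC1 was named after its values were seen.

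Cyclic electron flow was the other broad group of higher loci. Of 22 loci, 7 were separated with C4-type higher and 0 with C4-type lower, 31.8% against 2.47% of all loci, and all 22 had the higher mean in C4-type leaves, with a median difference of 1.48. With TMM scaling 4 were separated, against 2.16% of all loci. Most are subunits of the chloroplast NDH complex, which returns electrons from ferredoxin to the plastoquinone pool. Summed over 17 NDH loci, the level was 8788 RPM in F. bidentis, 6652 in F. kochiana, 8699 in F. trinervia and 4098 in F. brownii, against 2577 in F. pubescens, 2682 in F. angustifolia, 1894 in F. cronquistii and 3009 in F. pringlei. The groups did not overlap, and F. brownii again came nearest the C3-type leaves.

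PNSB4 (AT1G18730), a subunit of the same complex, had 982.6 RPM in F. bidentis, 1040 in F. kochiana, 851.4 in F. trinervia and 585.0 in F. brownii, against 253.9 in F. pubescens, 190.7 in F. angustifolia, 125.8 in F. cronquistii and 221.5 in F. pringlei. The groups did not overlap, and F. brownii was the lowest of its own. The difference was 2.13 ± 0.35 (limma adjusted p = 0.0842). NDHO, PNSB1 and PNSB2 differed by 2.05, 1.99 and 1.96 with limma adjusted p of 0.155, 0.174 and 0.174. PGR5, which acts in the NDH-independent route, overlapped: it had 620.5 to 1322 RPM in C4-type leaves and 239.8 to 740.3 RPM in C3-type leaves, with F. pubescens above F. brownii and F. kochiana (1.15 ± 0.45, limma adjusted p = 0.517).

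**Figure D2:**
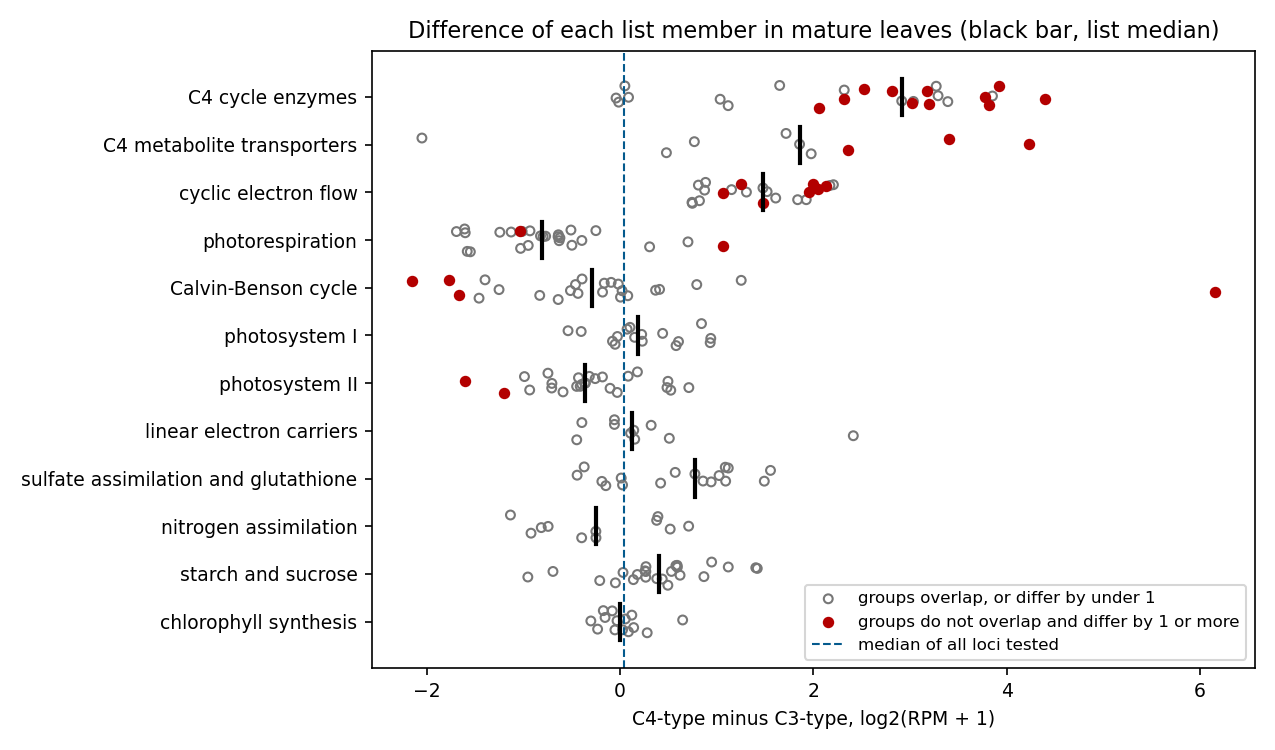
Difference C4-type minus C3-type in log2(RPM + 1) for each tested locus of 12 gene lists, with filled points for loci whose groups do not overlap and differ by 1 or more, a black bar at the list median and a dashed line at the median of all loci. The medians of C4 cycle enzymes (2.92), transporters (1.86) and cyclic electron flow (1.48) lie right of the line, and that of photorespiration (-0.81) left of it.

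Photorespiratory loci tended to lower values in the C4 species but not in F. brownii. Of 26 loci, 1 was separated in each direction, 7.69% against 2.47% of all loci, and 23 had the lower mean in C4-type leaves, with a median difference of -0.81. GOX2, a glycolate oxidase of the peroxisome, had 1941 RPM in F. bidentis, 3099 in F. kochiana, 2087 in F. trinervia and 4060 in F. brownii, against 4180 in F. pubescens, 6068 in F. angustifolia, 4979 in F. cronquistii and 7125 in F. pringlei. It was separated by a narrow margin between the 2 clade B libraries (-1.04 ± 0.35, limma adjusted p = 0.442). With TMM scaling 0 loci of the list were separated with C4-type higher and 4 with C4-type lower, against 1.19% and 0.971% of all loci. GLDP1, the P protein of glycine decarboxylase, had 520.2 to 921.6 RPM in the C4 species but 2530 RPM in F. brownii, against 929.9 RPM in F. pubescens and 1574 to 2716 RPM in the basal species. Its level in F. brownii was thus nearest to that of the C3 species F. pringlei, and the difference of the groups was -0.80 ± 0.52 (limma adjusted p = 0.734). Mitochondrial SHM1, which makes serine from the product, and GS2, which refixes the ammonia, also had their 3 lowest values in the C4 species (-1.03 and -1.58, limma adjusted p 0.609 and 0.485). The 8 glycine decarboxylase loci together gave 1955 to 2471 RPM in the C4 species but 6680 RPM in F. brownii, against 3869 to 6828 RPM in C3-type leaves. BOU, a mitochondrial carrier needed for photorespiration in Arabidopsis, was the member separated the other way, with 288.0 to 308.7 RPM in C4-type leaves and 107.0 to 224.0 RPM in C3-type leaves (1.07 ± 0.33, limma adjusted p = 0.389).

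The summed Rubisco small subunit loci and Rubisco activase had their lowest values in C4-type leaves, and most of the Calvin-Benson list around them was not separated. Of 24 loci, 1 was separated with C4-type higher, which was CP12-3, and 3 with C4-type lower, against 1.67% and 0.798% of all loci, and the median difference was -0.29. The 4 Rubisco small subunit loci summed to 25203 RPM in F. bidentis, 8691 in F. kochiana, 23054 in F. trinervia and 27542 in F. brownii, against 69677 in F. pubescens, 34051 in F. angustifolia, 73422 in F. cronquistii and 63877 in F. pringlei. In this sum F. brownii lay near F. bidentis and F. trinervia. RBCS1A (-2.15 ± 0.54, limma adjusted p = 0.248) and RBCS1B (-1.67 ± 0.47, limma adjusted p = 0.317) were separated by a narrow margin, with 11666 and 5488 RPM in F. brownii, against 11985 and 5598 RPM in F. angustifolia. The remaining small subunit loci, RBCS2B and RBCS3B, were not separated. RCA, Rubisco activase, had 7931 RPM in F. bidentis, 5695 in F. kochiana, 6174 in F. trinervia and 23897 in F. brownii, against 27823 in F. pubescens, 28116 in F. angustifolia, 24760 in F. cronquistii and 46856 in F. pringlei. For RCA too F. brownii was close to the lowest C3-type library (-1.77 ± 0.47, limma adjusted p = 0.286).

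Few photosystem loci separated the groups, and F. brownii was low in them. None of 16 photosystem I loci was separated (median difference 0.19). Of 25 photosystem II and antenna loci, 2 were separated with C4-type lower (8% against 2.47% of all loci, median -0.36). These were LHCB1.3 and LHCB2.2 (-1.60 and -1.20, limma adjusted p 0.234 and 0.317), members of the near-identical families of the main antenna protein. The 12 antenna loci summed to 67374 RPM in F. bidentis, 38123 in F. kochiana, 73133 in F. trinervia and 28179 in F. brownii, against 64950 to 89140 RPM in C3-type leaves, so the ranges overlapped. Against F. pubescens, F. brownii was lower by at least 1 on the log2 scale in 19 of the 25 photosystem II loci and in 10 of the 16 photosystem I loci, against 1076 of all 13909 loci. Among 10 linear electron carriers (0 separated, median 0.13), the leaf ferredoxin FD2 had 680.5 to 1902 RPM in C4 leaves and 118.8 RPM in F. brownii, against 281.1 RPM in F. pubescens and 62.3 to 123.3 RPM in the basal species; FD2 was named after its values were seen.

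Among regulators of chloroplasts, bundle sheath and veins, 10 of 13 loci were abundant enough to test and 1 was separated with C4-type higher (10%, against 2.47% of all loci). With TMM scaling 0 were. SCR (SCARECROW), a transcription factor of the endodermis and bundle sheath, had 34.5 RPM in F. bidentis, 31.0 in F. kochiana, 15.4 in F. trinervia and 4.48 in F. brownii, against 3.91 in F. pubescens, 1.94 in F. angustifolia, 1.60 in F. pringlei and the lowest value in F. cronquistii. The clade B libraries differed by less than 1 RPM, so the separation rested on the C4 species (2.59 ± 0.57, limma adjusted p = 0.174). Its partner SHR, named after its values were seen, ran from 10.4 to 14.7 RPM in C4-type leaves and from 4.68 to 10.9 RPM in C3-type leaves, with overlap.

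Other metabolism showed little. No locus was separated among 11 of nitrogen assimilation (median difference -0.25), 17 of sulfate assimilation and glutathione (0.78), 24 of starch and sucrose (0.41) or 14 of chlorophyll synthesis (0.00), with 2.47% of all loci separated. The sulfate list had 6 of 17 loci with an unadjusted p under 0.05 and C4-type higher, against 5.15% of all loci, and none of them passed the adjustment. APR1, a sulfate-reducing enzyme named after its values were seen, had 638.1 to 1972 RPM in C4-type leaves and 289.5 to 1029 RPM in C3-type leaves.

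Lists for leaf age, stress and cell type held 1 separated locus, HSP17.4. None was separated among 8 tested loci of cell cycle (median -0.12), 11 of the cytosolic ribosome (-0.07), 9 of senescence (0.24), 7 of jasmonate and defence (-0.23), 9 of the circadian clock (-0.09), 16 of xylem (0.18), 5 of phloem companion cells (-0.30), 6 of epidermis and stomata (-0.55) or the 1 tested locus of meristem and flower (0.56). SAG12, a protease used as a marker of senescence, had 40.0 RPM in F. bidentis, 14.7 in F. kochiana, 149.2 in F. trinervia and 865.0 in F. brownii, against 0.559 in F. pubescens, 15.6 in F. angustifolia, 34.9 in F. cronquistii and 19.4 in F. pringlei. The C4-type mean was carried by F. brownii and F. trinervia, and the groups overlapped (3.03 ± 1.20, limma adjusted p = 0.544). Of 4 heat and water stress loci, HSP17.4, a small heat shock protein, was separated (25%, against 2.47% of all loci). With TMM scaling 2 of the 4 were, against 2.16% of all loci. HSP17.4 had 51.1 to 113.6 RPM in C4-type leaves and 13.1 to 39.6 RPM in C3-type leaves (1.68 ± 0.43, limma adjusted p = 0.262). Among 73 chloroplast genome loci 2 were separated with C4-type lower (2.74%, near the 2.47% of all loci, median -0.10), and among 12 tested mitochondrial genome loci 0 were (median -0.35). The part that the age and RNA state of the F. brownii leaf has in its levels was not tested.

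Whether the differences followed the photosynthetic type or the lineage was examined by splitting the 8 libraries into those of clade B and the rest. All 3 C4 species belong to clade A and all other C3-type species to the base of the genus, so for these 6 libraries type and lineage cannot be told apart. Clade B gave 1 library of each type, F. brownii and F. pubescens, and a difference with no replicate. Without the clade B pair, limma called 132 loci (0.961% of 13730), 84 higher (0.612%) and 48 lower (0.35%) in the C4 species. Higher were 17 of the 25 C4 cycle enzymes, 6 of 9 transporters, 7 of 22 cyclic flow loci, SCR, FD2 and CP12-3. Lower were the carrier DIC1, RBCS1A, RCA and the photorespiratory mLPD1 and mLPD2, which are forms of the L protein of glycine decarboxylase. All 6 loci called with 8 libraries were called there too.

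In the clade B pair the medians of the C4 lists were smaller. The median of C4 cycle enzymes was 3.75 for clade A minus basal species and 0.38 for F. brownii minus F. pubescens, where the median of all loci was -0.09 and 0.39. Transporters had medians of 2.54 and -0.18, and cyclic electron flow 1.84 and 0.62. Photorespiration had medians of -1.37 and 0.36, and photosystem II -0.03 and -1.43. The named genes showed a graded picture. F. brownii exceeded F. pubescens by 3.85 for CP12-3, 2.22 for NHD1, 1.88 for NADP-MDH and 1.20 for PNSB4 on the log2 scale. The gap was 1.09 for PPC1, 0.89 for PPDK, 0.27 for BASS2, 0.14 for PPT1 and -0.43 for NADP-ME1. Of 232 loci separated with C4-type higher, F. brownii was the lowest C4-type library in 109 (47%), whereas it was lowest in 16.5% of all loci. F. pubescens was the highest C3-type library in 79 (34.1%), against 20.7% of all loci. Of the 111 separated with C4-type lower, F. brownii was the highest C4-type library in 46.8%, against 46.1% of all loci.

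**Figure D3:**
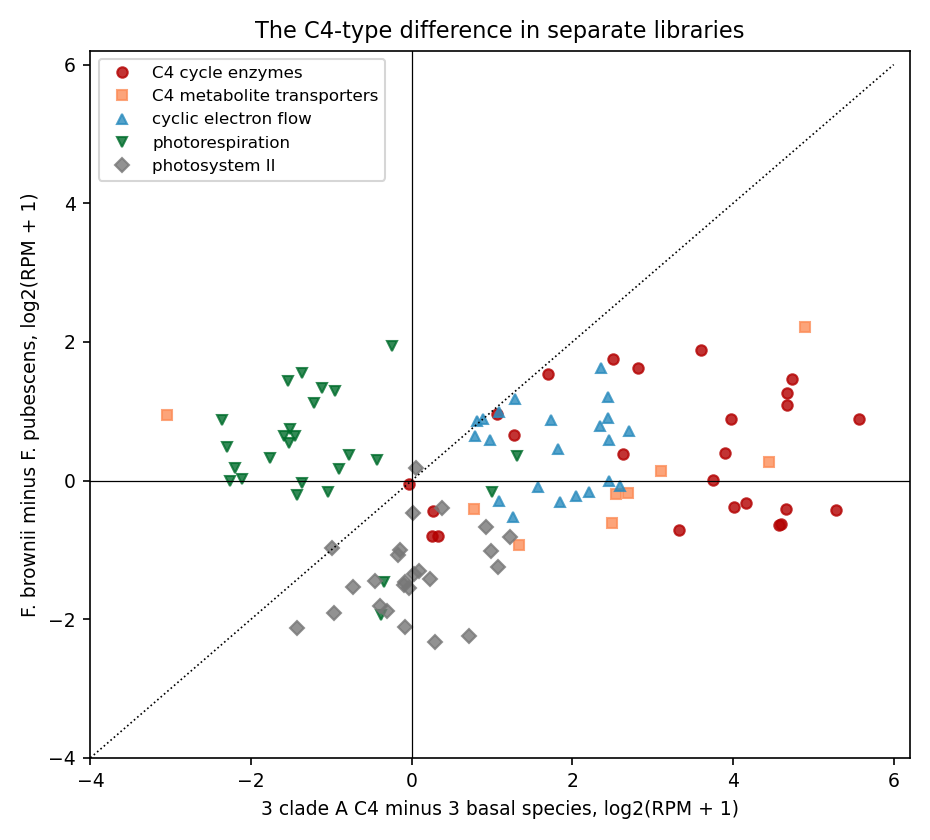
Difference in log2(RPM + 1) between the 3 clade A C4 species and the 3 basal species (x axis) and between F. brownii and F. pubescens (y axis), 1 point per tested locus of 5 gene lists, with a dotted line of equal values. C4 cycle enzymes have medians of 3.75 and 0.38 on the axes, and photosystem II loci -0.03 and -1.43.

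The difference between types was also set beside that of juvenile leaves, taken at the start of expansion, in the 7 species with both stages (F. bidentis, F. trinervia and F. brownii, against F. pubescens, F. angustifolia, F. cronquistii and F. pringlei). No locus of 14500 passed the limma test of the difference between the stages (0%), with a smallest adjusted p of 0.423, and 1027 loci (7.08%) had an unadjusted p under 0.05. Without F. brownii 1 locus passed, and its mature minus juvenile difference was lower in C4-type than in C3-type species. Nothing above can therefore be called particular to mature leaves. Some named genes differed by nearly the same amount at both stages. NADP-MDH differed by 3.13 in mature and 3.12 in juvenile leaves and NHD1 by 4.17 and 3.85.

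Other loci had unlike gaps at the 2 stages, within what the test can show. PPDK differed by 4.04 in mature and 5.91 in juvenile leaves, a change of -1.88 ± 0.37 (limma adjusted p = 0.441). Its mature minus juvenile difference was 0.16, 0.13 and 0.95 in F. bidentis, F. trinervia and F. brownii, against 2.42, 2.96, 1.67 and 2.12 in F. pubescens, F. angustifolia, F. cronquistii and F. pringlei. All 4 C3-type species thus had more PPDK reads in the mature leaf, by a larger step than any C4-type species. CP12-3 went the other way, with differences of 6.12 in mature and 4.18 in juvenile leaves and a change of 1.94 ± 0.43 (limma adjusted p = 0.505). Its mature minus juvenile difference was 0.48, 0.69 and 0.90 in F. bidentis, F. trinervia and F. brownii, against -2.29, -0.88, -0.42 and -1.41 in F. pubescens, F. angustifolia, F. cronquistii and F. pringlei. The sign was thus the same within each group and opposite between them. AT3G50360 differed by 2.50 in mature and 0.41 in juvenile leaves (2.08 ± 0.37, limma adjusted p = 0.423). SCR had mature minus juvenile differences of -2.33 to -0.89 in C4-type species and -2.33 to -1.63 in C3-type species, all 7 below 0.

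**Figure D4:**
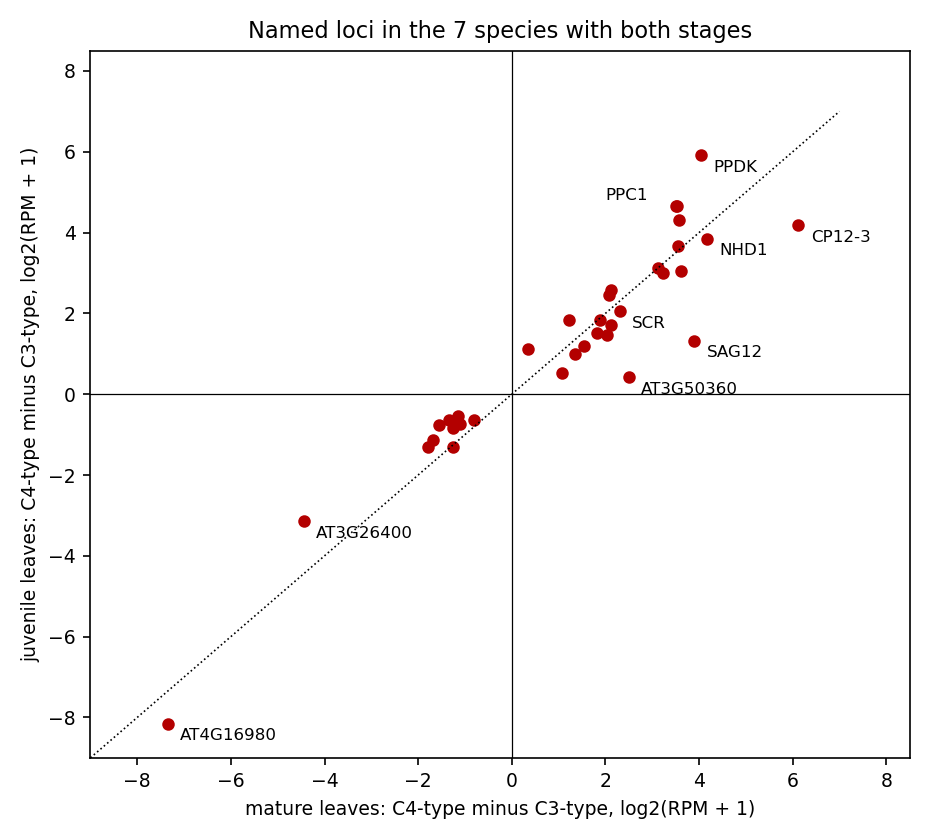
Difference C4-type minus C3-type in log2(RPM + 1) in mature leaves (x axis) and juvenile leaves (y axis) of the 7 species with both stages, 1 point per named locus, with a dotted line of equal values. NHD1 (4.17 and 3.85) lies near the line, PPDK above it (4.04 and 5.91), and CP12-3 (6.12 and 4.18) and AT3G50360 (2.50 and 0.41) below it.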

How the data were processed

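Leaf RNA was extracted with hot acid phenol, cleaned on columns with DNase and made into Illumina libraries by a sequencing centre, per the labels' protocols. The RPM table, deposited by the authors, covers 20551 Arabidopsis loci, of which 74 are chloroplast and 46 mitochondrial loci. The build is TAIR10, per the submitters' processing notes, while the aligner and counting rule are not given in the sources used here. The type of each species was taken from textbook knowledge. In the deposited RPM 100% of values were whole multiples of 1 read (tolerance 0.001), which gave read totals, and edgeR 4.0.16 ran on those reads as an alternative and called 0 loci. Totals of assigned reads were 5.45 to 9.15 M (M, 1000000) in the mature libraries.

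The main test was limma 3.58.1 (R 4.3.3) on log2(RPM + 1) with a variance trend, on loci averaging 2 RPM or more, two-sided, adjusted by Benjamini-Hochberg, with a threshold of 0.05; it understates changes of low loci. Single loci also had an exact permutation test over 70 splits, where the smallest p is 0.0286. Of 35 named genes 26 reached it, but groups that do not overlap always give this p. Many genes were named because their groups were separated, so the count adds no support. Stages were compared on mature minus juvenile differences of each of 7 species. Tests ran first on simulated data with independent libraries and no shared lineage. That can check the code but not how the tests perform on these data.

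There were 24 gene lists with 341 loci, 338 of them in the table. Named were up to 4 called or separated members of each list by size of difference, 18 fixed genes, and the 2 largest calls each way outside the lists. The groups, members and lists were chosen with earlier results of these data known. Alternatives changed the pseudocount (0.1, 5), the filter (none, 10 RPM), the scaling (TMM, nuclear loci only), the trend, the test and the libraries. The 3 out-group samples were not analysed here, and the table names no sample outside the labels. Gene sequences and coordinates were not used here.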

Additional observations from a re-analysis of the deposited data

Results flagged for a closer look

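Of 78 groups of 4 libraries tested, 70 for the 35 named genes and 8 for library measures such as read totals, 12 (15.4%), all for named genes, held a library far from the other 3, where chance gives about 1 in 20. F. brownii gave 7 of these, F. pubescens 3 and F. angustifolia 2, and genes of 1 family share reads. Values are log2(RPM + 1). F. brownii was the lowest C4-type library by a wide gap for PPC1 (11.50), PPC2 (10.24), PPC3 (11.38), BASS2 (9.60), PPT1 (9.13) and PNSB1 (8.23). It was the highest C4-type library by such a gap for AT4G16980 (2.53). F. pubescens was the highest C3-type library by a wide gap for NHD1 (6.75), BASS2 (9.33) and AT1G49810 (4.54), and F. angustifolia the lowest for PNSB1 (7.04) and PNSB2 (4.73).

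For 2 of the 35 named genes every C4-type species moved one way from juvenile to mature leaves and every C3-type species the opposite way. The same count over all loci is not given here, so this count has no background beside it. For AT3G26400 the step in F. cronquistii was only 0.04. Both were named for their difference in mature leaves, which favours a wider gap at that stage. The C4-type minus C3-type difference of the mature minus juvenile change was 1.94 for CP12-3 (limma adjusted p = 0.505) and -1.30 for AT3G26400 (limma adjusted p = 0.632).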

How the results depend on the processing

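The 35 named genes were recomputed under 630 other settings in all. Of these 553 kept the direction and the side of the threshold, 27 lost a call, 43 gained one (39 of them without F. brownii) and 7 turned sign. The 7 were all CA1, at 0.23 for C4 against C3 species only, 0.19 with edgeR, 0.11 without F. pringlei, 0.09 without F. pubescens, 0.15 without F. brownii, 0.35 without F. kochiana and 0.25 without the clade B pair; leaving out 1 library in turn gave CA1 -0.33 to 0.35. With edgeR 0 loci were called higher and 0 lower. C4 against C3 species only gave 33 called higher and 17 lower, with 836 and 1043 separated. Without the clade B pair 84 and 48 were called, with 667 and 882 separated. TMM scaling, no filter on low values and a pseudocount of 5 each left 1 call lower. A pseudocount of 5 gave 144 separated loci higher and 70 lower, and a mean of at least 10 RPM gave 73 lower. Leaving out 1 library in turn gave 2 to 74 calls higher, 1 to 30 lower, 292 to 507 separated higher and 136 to 515 lower. For the difference between stages, leaving out 1 species gave 0 to 0 calls higher and 0 to 1 lower. The causes were not tested, beyond fewer libraries in some settings. No paired analysis was possible because replicate numbers in the mature comparison only name species and pair no library with another; the stage comparison was made within species. Loci near 0.328 to 0.550 RPM are limited by depth, and 1 library per species limits every value.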
